A study of Homo sapiens with 12 samples.

Results

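The genes described here are those that the authors' annotation places in 2 pathways, neuroactive ligand-receptor interaction and olfactory transduction, and that carried at least 1 peak of acetylated RNA in HaCaT cells. They number 109 of the 10870 genes with a peak, 73 from the neuroactive and 36 from the olfactory pathway, with 0 in both, and they hold 294 of 61804 peaks. The study used HaCaT, an established line of human keratinocytes, and asked which genes differ when NAT10 is overexpressed. The cells carried NAT10 overexpression plasmids or, as controls, an empty vector. RNA with N4-acetylcytidine (ac4C), the base that NAT10 makes, was pulled down with an antibody and sequenced beside the input RNA (acRIP-seq), in 3 replicates per group and with 1 list of peaks from every replicate. These are called NAT10 lists 1, 2 and 3 (overexpression) and vector lists 1, 2 and 3 (control), by replicate number. The labels name no promoter, clone, time or selection for the plasmids and do not give the source of each replicate, so p-values measure only the spread between these lists, which may be technical.

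Neuroactive receptors are the cell-surface proteins through which transmitters, peptides, lipids and nucleotides signal, either as ion channels or as receptors coupled to G proteins. Olfactory receptors are a very large family of such G protein-coupled receptors, known from sensory neurons of the nose. Their pathway also takes in the shared machinery behind them, such as G protein subunits, calmodulin and calmodulin-dependent kinases, which most cell types use. Some of the receptors are known from skin, among them MC1R, the melanocortin receptor of pigmentation, and TRPV1, the channel opened by heat and capsaicin.

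The lists held 12157, 12119 and 3105 peaks in NAT10 lists 1, 2 and 3 and 4324, 19261 and 10838 peaks in vector lists 1, 2 and 3. No read count or RNA level comes with the peaks, so depth is unknown and a gene without a peak is one on which none was called. The authors' false discovery rate, read as percent, was 29.28% or higher for each of the 294 peaks. In a bulk culture, fewer cells with an RNA and less of it per cell cannot be told apart. NAT10 itself had 14, 14 and 15 peaks in NAT10 lists, against 1, 2 and 2 in vector lists. NAT10 list 3 stands apart by markers. Of 20 keratinocyte markers, 18 had a peak in some list, and they numbered 15, 14 and 2 in NAT10 lists 1, 2 and 3 and 9, 15 and 14 in vector lists 1, 2 and 3. Of 12 neuron markers 6 had a peak in some list, with 4, 3 and 1 in the NAT10 lists and 1, 4 and 2 in the vector lists. Of 7 markers of olfactory epithelium only GNAL and GNG13 had one, with 0, 0 and 0 of them in the NAT10 lists and 0, 2 and 1 in the vector lists, and both genes also belong to the olfactory pathway. Melanocyte, fibroblast, endothelial and immune markers with a peak numbered 3 of 9, 2 of 8, 4 of 8 and 2 of 10. The 2 immune markers, CD3D and CD14, had a peak in NAT10 list 3 alone. That list had 0 melanocyte, 1 fibroblast and 0 endothelial markers.

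The peaks of a few of these genes cover the transcript start as listed in RefSeq (GRCh38.p14), which gives the sequence. The 30 bases from the start are shown for GNB1, the gene here with peaks in most lists, for CAMK2D and CAMK2G, whose starts hold the same motif, and for MC1R and 3 olfactory receptor genes, whose starts do not. Capitals mark the motif CNNCNNCNNC, cytidines spaced by NN, which is the kind of context described for ac4C in human mRNA.

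GNB1, chr1:1891058-1891087, minus strand: aggggcCCGCCGCGCCcatcccgatggctg
CAMK2D, chr4:113761709-113761738, minus strand: ctttctctcgCCGCGCCGTCttgaagccgc
CAMK2G, chr10:73874526-73874555, minus strand: CCCCGTCTCCTCCtcttgCTCCCTCGGCcg
MC1R, chr16:89918862-89918891, plus strand: attcttcccaggacctcagcgcagccctgg
OR1K1, chr9:122800123-122800152, plus strand: atggaggctgccaatgagtcttcagaggga
OR2D2, chr11:6892471-6892500, minus strand: atgagacagataaatcagacacaagtgaca
OR4F15, chr15:101812202-101812231, plus strand: gtaaggatggcatgaagttcacaatgggag

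The start table held 88 of the 109 genes, and 13 of these, with 14 starts, were counted with a peak over the first 30 bases. Pathway gene starts on chromosome 8, where CHRNA2 and NPBWR1 lie, were left out of this count. The counts over all genes below include that chromosome. The motif stood on the transcribed strand in 3 of the 14 starts. Over all 22183 starts of protein-coding genes it stood on that strand in 19.1% and on the opposite strand in 26.05%, and in 25.6% of the 2643 starts with a peak over them. A match is a description of the letters and not a measured site. The sequences of OR1K1 and OR2D2 open with atg, the letters of a start codon. Their listed starts may thus be those of the coding sequence, a region unlike the other starts shown. The peaks over the starts of OR1K1, OR2D2 and OR4F15 were each called in NAT10 list 2 alone, and that over the GNB1 start in 5 lists.

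Peaks on these genes seldom recurred. Of the 109 genes, 64 had a peak in only 1 of the 6 lists (58.7%), against 28.3% of the 10761 other genes with a peak. At least 4 lists held a peak for 12 of them (11.01%), against 35.5% of the other genes, and all 6 lists for 1, GNB1, against 6.28%. The genes had a mean of 2.70 peaks over all lists, against 5.72 on other genes, and they are shorter, with a median span of 18210 bases against 35897 in RefSeq. How far span, depth or RNA level bear on recurrence was not tested.

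**Figure D1:**
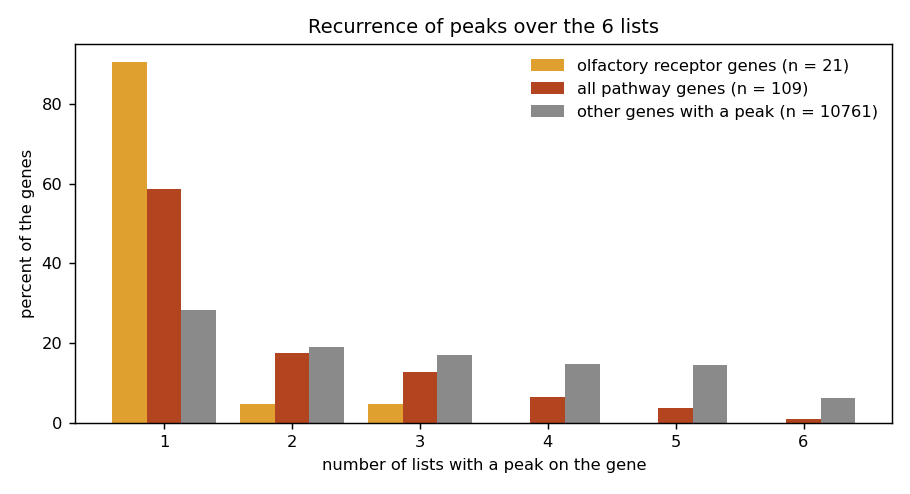
Percent of genes (vertical axis) by the number of lists with a peak on the gene (horizontal axis), for the 21 olfactory receptor genes, all 109 pathway genes and the 10761 other genes with a peak. The pathway genes crowd into 1 list, at 58.7%, and the olfactory receptors more so, at 90.5%, against 28.3% of other genes.

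Positions on these genes also seldom recurred. The 294 peaks fell on 215 separate positions, of which 162 were covered in 1 list, 38 in 2, 8 in 3, 4 in 4, 3 in 5 and 0 in 6. Of the 45 genes with a peak in more than 1 list, 33 had at least 1 position covered in more than 1, and the other 12, among them CHRNA7, NR3C1 and GRIN2C, had peaks at different places in each list. Positions were not counted in this way on other genes, so these counts have no background. In every list a smaller share of pathway gene peaks than of other peaks overlapped a peak of another list. That share was 43.3%, 44.6% and 27.3% in NAT10 lists 1, 2 and 3, where other peaks had 60.1%, 62.96% and 53.7%. In vector lists 1, 2 and 3 it was 82.4%, 40.3% and 50%, where other peaks had 85.5%, 41.7% and 68.7%. The difference averaged −14.1 ± 9.82 percentage points (SD, n = 6 lists) and was smallest in vector lists 1 and 2.

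Peaks on these genes had a higher median length and a higher median fold than other peaks of the same list, in all 6 lists. The median length was 202, 235 and 212.5 bases in NAT10 lists 1, 2 and 3, against 177, 190 and 156 for other peaks there. It was 271, 223 and 224 bases in vector lists 1, 2 and 3, against 229, 156 and 197 for other peaks. The log2 ratio of the medians averaged 0.31 ± 0.14 (SD, n = 6 lists), and 0.13 ± 0.21 when the same number of top-scoring peaks was taken from each list. Not all of the genes share the greater length: over all lists the 59 peaks on olfactory pathway genes other than receptors had a median of 95 bases, against 179 for peaks on genes outside both pathways. The authors' fold, IP over background, had medians of 7.15, 7.30 and 9.28 on these genes in the NAT10 lists, against 6.29, 6.39 and 7.17 for other peaks. In the vector lists the medians were 8.08, 8.65 and 7.74, against 7.21, 6.82 and 6.58. The log2 ratio of median folds averaged 0.25 ± 0.09 (SD, n = 6 lists).

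Peaks of 200 to 300 bases made up 36.1% of those on pathway genes and 20.3% of the others, while peaks of 1000 bases or more made up 2.38% and 3.53%. The score (a p-value of 1e-05 is a score of 50) showed no common direction. Its median on these genes lay above that of other peaks in NAT10 lists 1 and 3 (148.6 against 137.9 and 158.8 against 113.1), below it in NAT10 list 2 and vector lists 1 and 3, and at the same value, 164.2, in vector list 2. The difference averaged 7.92 ± 19.4 score points (SD, n = 6 lists) and 0.36 without NAT10 list 3.

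**Figure D2:**
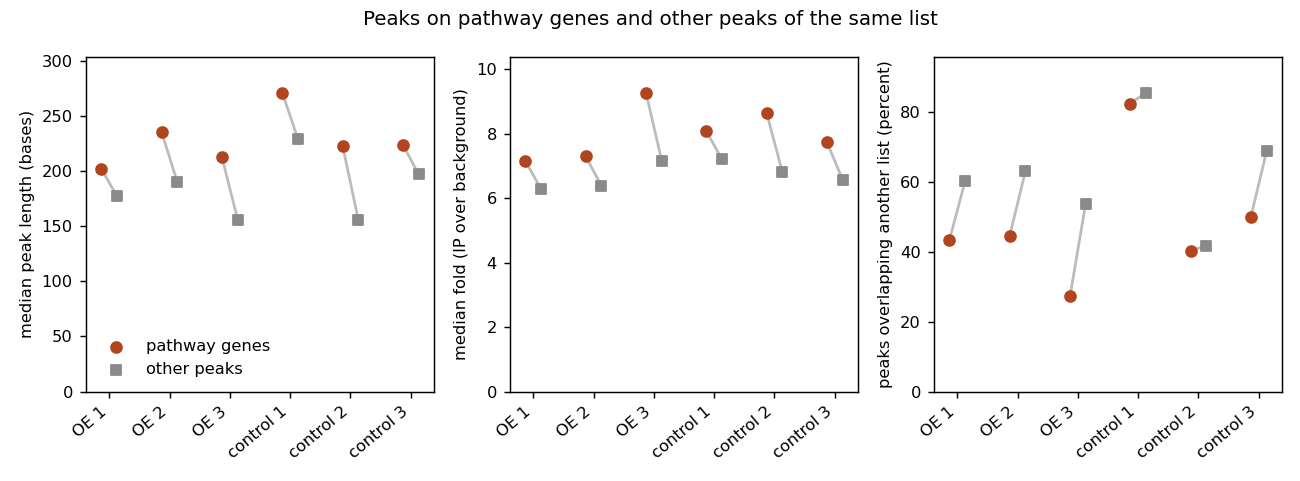
Median peak length in bases, median fold of IP over background and the percent of peaks that overlap a peak of another list, for pathway gene peaks (circles) and other peaks (squares) of each list, OE marking NAT10 lists and control vector lists. In each of the 6 lists the circle lies above the square for length and fold and below it for overlap, by least in vector list 2 (−1.37 points) and most in NAT10 list 3 (−26.5 points).

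Many of the peaks shared their exact values with other peaks of the list. A pair of score and fold that occurred more than once in its list was found for 83 of the 294 peaks (28.2%), against 10.6% of other peaks. The share was 21.7%, 36.5% and 54.5% in NAT10 lists 1, 2 and 3, where other peaks had 12.9%, 9.15% and 20.7%, and 29.4%, 14.9% and 29.6% in vector lists 1, 2 and 3, where other peaks had 5.87%, 11.8% and 6.57%. In NAT10 list 2 a score of 102.06 with a fold of 7.3 was held by 13 peaks, among them those of CAMK2A, LEP, the gene of the hormone leptin, and SSTR2, a somatostatin receptor. In vector list 3 a score of 114.96 with a fold of 6.77 was held by 14 peaks, among them those of GABRR3, OR2A1 and OR2A42. The lists do not give the read counts behind such values.

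NAT10 overexpression and empty vector lists were next compared by how much of each list lay on the pathway genes. Genes with a peak numbered 35, 48 and 21 in NAT10 lists 1, 2 and 3 and 15, 37 and 42 in vector lists 1, 2 and 3 (34.7 ± 13.5 and 31.3 ± 14.4, SD, n = 3 per group, log2 difference 0.20, two-sided exact permutation p = 0.7). Their peaks numbered 60, 74 and 22 in the NAT10 lists and 17, 67 and 54 in the vector lists (52 ± 26.9 and 46 ± 25.9, SD, n = 3 per group, log2 difference 0.22, two-sided exact permutation p = 0.6). Both ranges overlap, and both differences changed sign without NAT10 list 2 or vector list 1, at −0.08 and −0.27 for genes and −0.12 and −0.39 for peaks.

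As a share of each list the pathway genes were higher in most NAT10 lists, within overlapping ranges. They made up 0.604%, 0.807% and 0.911% of the genes with a peak in NAT10 lists 1, 2 and 3, against 0.478%, 0.467% and 0.705% in vector lists 1, 2 and 3. The means were 0.774 ± 0.156% and 0.550 ± 0.134% (SD, n = 3 per group, two-sided exact permutation p = 0.2, with 0.1 the smallest that 3 lists against 3 allow). Of all peaks they held 0.494%, 0.611% and 0.709% in the NAT10 lists and 0.393%, 0.348% and 0.498% in the vector lists (0.604 ± 0.108% and 0.413 ± 0.0772%, SD, n = 3 per group, two-sided exact permutation p = 0.2). NAT10 list 1 lay below vector list 3 in both measures. The highest share was in NAT10 list 3, the list with 2 of 20 keratinocyte markers, and the part of that list's makeup in the result was not tested. Without it the difference in the share of genes was 0.155 percentage points, against 0.224 with it, and without vector list 2 as well it was 0.114.

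**Figure D3:**
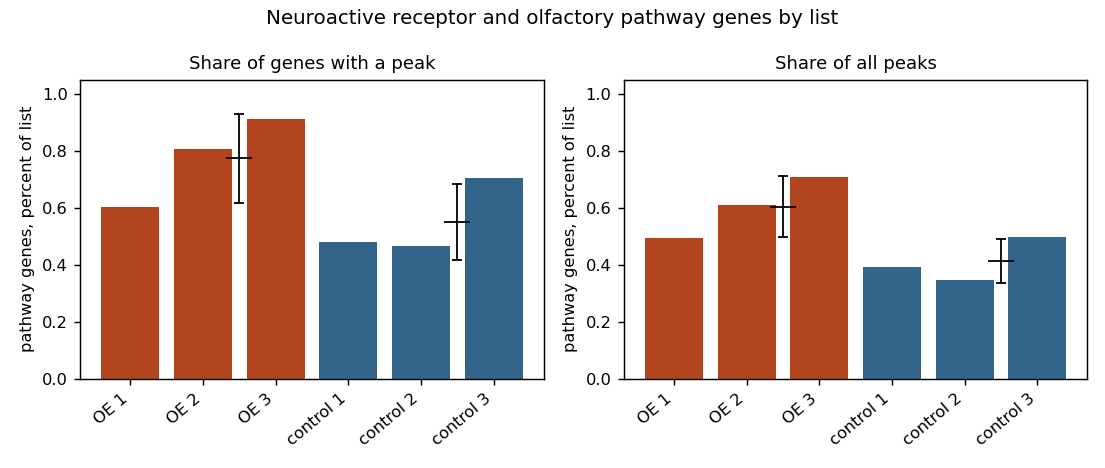
Pathway genes as a percent of the genes with a peak (left) and their peaks as a percent of all peaks (right) in each list, with the mean and SD of each group of 3 lists in black, OE marking NAT10 lists and control vector lists. NAT10 lists 2 and 3 lie above every vector list, and NAT10 list 1 lies below vector list 3.

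Gene by gene, none of the 109 had a peak in all lists of one group and none of the other. The count was 0 for peaks in all 3 overexpression and no vector lists, against 0.267% of all genes with a peak, and 0 for the opposite pattern, against 1.09%, and counts of 0 among 109 genes are near what those shares give. For a single gene, 3 lists against 0 has an exact p of 0.1 at best. Peaks in more NAT10 than vector lists were found on 53 genes (48.6%), against a background of 25.6%, and in more vector than NAT10 lists on 39 (35.8%), against 46.3%. Of the genes, 42 had peaks in NAT10 lists only (38.5%, background 13.5%) and 29 in vector lists only (26.6%, background 23.6%). Most of these rest on 1 list: 40 of the 42 and 24 of the 29. Over all genes with a peak most did so too, 1205 of 1463 and 1905 of 2565.

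The genes found in 1 list only were spread over all 6 lists. They numbered 10, 17 and 13 in NAT10 lists 1, 2 and 3 and 3, 10 and 11 in vector lists 1, 2 and 3. As a share of the pathway genes of each list they were 28.6%, 35.4% and 61.9% in NAT10 lists and 20%, 27.03% and 26.2% in vector lists. For other genes the same share was 8.14%, 7.57% and 10.9% in NAT10 lists and 3.36%, 17.4% and 6.81% in vector lists. The pathway genes thus had the larger share in each list, by most in NAT10 list 3.

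The genes differ by role. Lists of receptors, ligands and signalling genes were compared with RefSeq, in which 10771 of 20056 protein-coding genes (53.7%) had a peak in some list. Olfactory receptors were lowest, with 21 of 390 genes (5.38%), then GABA and glycine receptors with 3 of 25 and aminergic receptors, for adrenaline, dopamine, serotonin, histamine and acetylcholine, with 9 of 41. Peptide and protein hormone receptors had 20 of 89, ligands 11 of 35, glutamate receptors 9 of 26 and lipid mediator receptors 10 of 25. Purinergic receptors, for ATP and adenosine, had 9 of 21, olfactory signal transduction genes 21 of 46, and nicotinic receptor subunits 8 of 16. All 4 of the group of nuclear receptors and TSPO had one.

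**Figure D4:**
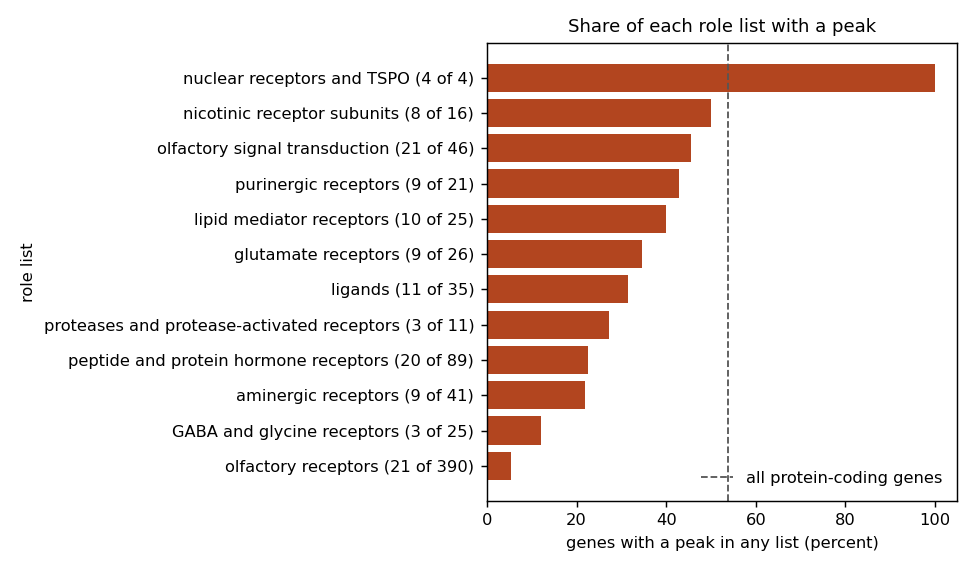
Percent of the genes of each role list with a peak in any of the 6 lists (bars, with the counts beside each name), and the percent over all protein-coding genes of RefSeq (dashed line, 53.7%). Olfactory receptors are lowest, at 5.38%, and 11 of the 12 role lists lie left of the line.

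The olfactory receptor genes were almost all single finds. Of the 21, 19 had a peak in 1 list only, OR51Q1 in 2 lists and OR51M1 in 3, and 0 in more. Their 25 peaks were alike in size: 20 (80%) were 200 to 300 bases long, against 20.3% of peaks on genes outside both pathways. The pair of score and fold was shared with another peak of the list for 14 of the 25 (56%). Of the genes, 11 lie on chromosome 11 (52.4%), where RefSeq places 43.8% of the family.

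OR6V1 had the highest fold of the family, 27.01, in NAT10 list 3, with a score of 563.9 over 215 bases. Another peak of that list has the same score, fold and length, so the OR6V1 value is uncertain. OR13C2 followed at 26.1 in that list, over 377 bases, and OR7E24 had 16.2 there, over 284 bases. OR5H14 had a fold of 19.06 and a score of 672.6 in NAT10 list 1, and OR1K1 13.7 in NAT10 list 2, over 46 bases. OR10A6 had 12.98, in vector list 2. The score and fold of OR7E24 were held by 5 peaks of the list, and those of OR10A6 by 4. None of these 6 had a peak in any other list.

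The recurring receptor genes OR51M1 and OR51Q1 lie within the RefSeq span of OR51B5, another olfactory receptor gene, as does OR51I2. OR51M1 had highest folds of 7.15 and 11.4 in NAT10 lists 1 and 2, against 17.9 in vector list 2, and no peak in the other lists. Its peaks in NAT10 list 1 and vector list 2 overlap within 5389946 to 5390365 on chromosome 11, and those of NAT10 list 2 lie elsewhere. OR51Q1 had a fold of 6.42 in NAT10 list 2 and 8.39 in vector list 3, at overlapping places. Reads of OR51M1 or OR51Q1 and of OR51B5 cannot be told apart in these lists. OR2A1 and OR2A42, near-identical copies on chromosome 7, had peaks of the same length, 230 bases, the same score and the same fold in vector list 3, so their reads may be shared and both are uncertain.

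Olfactory receptor genes with a peak numbered 4, 8 and 5 in NAT10 lists 1, 2 and 3, against 1, 2 and 4 in vector lists 1, 2 and 3. As a share of the genes with a peak these were 0.0690%, 0.134% and 0.217% in NAT10 lists and 0.0319%, 0.0253% and 0.0672% in vector lists. The shares do not overlap between groups, while the counts meet at 4. The comparison was chosen after its values were seen and carries no test. Peaks in more NAT10 lists were found on 15 of the 21 genes (71.4%), against the background of 25.6%. Peaks in more vector lists were found on 5 (23.8%), against 46.3%. Of the 15 genes, 14 rest on 1 list, as do 1205 of the 2782 genes in more NAT10 lists over all genes with a peak.

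The olfactory pathway also holds the signalling machinery behind these receptors. Of its 15 genes other than receptors, 8 had a peak in 1 list only and 4 in at least 4 lists. GNB1, the beta subunit of heterotrimeric G proteins, lies on chromosome 1 from 1785286 to 1891087 and was the only gene here with a peak in all 6 lists. It had 4, 5 and 1 peaks in NAT10 lists 1, 2 and 3 and 2, 4 and 2 in vector lists 1, 2 and 3. Its highest folds were 40.01, 40.9 and 3.18 in the NAT10 lists, against 37.3, 60.03 and 71.3 in the vector lists. The 5 values from 37.3 up all belong to 1 peak, at 1890820 to 1891117, which had the same ends in each list and covers the start shown above with its cytidine run. NAT10 list 3 had no peak there, and its single peak lay at 1793245 to 1793274. A peak of 49 bases at 1839190 to 1839238 also had the same ends in the same 5 lists, with folds of 13.8 and 9.12 in NAT10 lists 1 and 2 and 3.65, 9.05 and 4.65 in the vector lists.

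CALM3, a calmodulin gene, had a peak of 202 bases with the same ends in 5 lists, at 46601236 to 46601437 on chromosome 19. Its fold there was 6.14 and 5.11 in NAT10 lists 1 and 2, against 9.12, 5.95 and 9.75 in vector lists 1, 2 and 3, and NAT10 list 3 had none. The 2 overexpression values lie within or below the range of the control values. A further CALM3 peak of 1669 bases, in NAT10 list 2, overlaps the prostacyclin receptor gene PTGIR. CAMK2G and CAMK2A, calmodulin-dependent kinase genes chosen after their values were seen, had peaks in 5 and 4 lists. CAMK2A had a highest fold of 7.3 in NAT10 list 2, against 12.5, 26.0 and 22.2 in vector lists 1, 2 and 3, so the 1 overexpression value lies below the control values, but only vector list 2 had its peak at the same place.

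Of the 46 genes in the role list of olfactory signal transduction, 8 had a peak but are not listed under the pathway in the files, among them ADCY3, the adenylate cyclase of olfactory neurons, and the receptor kinase gene GRK2, each in 5 lists. The pathway field of ADCY3 ends in a separator, as it does for 925 genes, and may be incomplete. Of the 21 genes of this role list with a peak, 8 were in more NAT10 lists and 11 in more vector lists. These counts are 38.1% and 52.4%, beside backgrounds of 25.6% and 46.3%.

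PARD3 had the most peaks of the 109 genes, 31, yet encodes a scaffold protein of cell polarity and not a receptor, although the files list it under neuroactive ligand-receptor interaction. It had 7, 4 and 0 peaks in NAT10 lists 1, 2 and 3, against 2, 12 and 6 in vector lists 1, 2 and 3. Its highest folds were 7.48 and 12.1 in NAT10 lists 1 and 2 and 10.3, 21.9 and 8.25 in the vector lists, not all at the same place. The gene is long, from 34109561 to 34815296 on chromosome 10. Its most recurrent places were at 34814876 to 34815325 and at 34284135 to 34284245, each in 4 lists. At the first, the fold was 12.1 in NAT10 list 2, against 5.15, 10.49 and 8.25 in vector lists 1, 2 and 3. At the second, the order was the other way, with 4.83 and 5.12 in NAT10 lists 1 and 2, against 10.3 and 7.36 in vector lists 1 and 2. Without PARD3 the share of pathway genes differed between groups by 0.233 percentage points (two-sided exact permutation p = 0.2).

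TRPV1, the heat and capsaicin channel, had 3, 10 and 2 peaks in NAT10 lists 1, 2 and 3, against 0, 0 and 3 in vector lists 1, 2 and 3. Its highest folds were 13.1, 10.4 and 13.5 in NAT10 lists and 7.18 in vector list 3. The counts overlap, since vector list 3 had more peaks than NAT10 list 3. The highest folds do not overlap, but they come from different places on the gene. At 3573633 to 3573955, the place of the 7.18, the folds were 13.1 and 6.6 in NAT10 lists 1 and 2, so the values overlap there. TRPV1 was the only one of the 109 genes with a position covered in all 3 NAT10 lists and no vector list. That position was 3589807 to 3590105 on chromosome 17, where the folds were 10.4, 10.4 and 9.55. The peak of NAT10 list 3 there was only 27 bases long, against 299 and 292 bases in NAT10 lists 1 and 2. That position was chosen after its values were seen. The share of positions on all genes with this pattern was not computed, so its rarity here cannot be judged.

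Among lipid mediator receptors, PTAFR, the receptor of platelet-activating factor, had peaks in 5 lists. Its highest folds were 11.5, 6.25 and 7.2 in NAT10 lists 1, 2 and 3, against 5.29 and 4.71 in vector lists 2 and 3, with no peak in vector list 1. The overexpression values lie above the control values, but the peaks of NAT10 list 1 and vector list 3 overlapped none of another list. The other 3 lie within 28148897 to 28150038 on chromosome 1, where the peak of NAT10 list 2 overlapped those of NAT10 list 3 and vector list 2, with folds of 6.25 and 7.2 in NAT10 lists 2 and 3 and 5.29 in vector list 2. LTB4R, a leukotriene B4 receptor chosen after its values were seen, had folds of 20 and 12.8 in NAT10 lists 1 and 2, against 6.24 and 4.22 in vector lists 1 and 2. Its neighbour LTB4R2 had peaks in 2 lists that also overlap CIDEB and LTB4R, so its reads cannot be assigned to it alone.

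MC1R had the longest peak of the 109 genes, 2179 bases in NAT10 list 1. Its highest folds were 13.1 and 8.24 in NAT10 lists 1 and 2, against 8.08 and 18.7 in vector lists 1 and 3, with overlapping ranges and no peak in NAT10 list 3 or vector list 2. On chromosome 16 MC1R spans 89918862 to 89920972, and 3 of its 5 peaks overlap an uncharacterised protein-coding gene. P2RY11, a receptor for ATP, had the next longest peak, 1740 bases with a fold of 7.87 in NAT10 list 1, against a peak of 137 bases with a fold of 3.19 in vector list 2. Both P2RY11 peaks overlap the readthrough gene PPAN-P2RY11, and the longer one also overlaps the translation factor gene EIF3G. Of the 20 role-list genes for peptide and protein hormone receptors with a peak, 9 were in more NAT10 and 8 in more vector lists (45% and 40%, beside backgrounds of 25.6% and 46.3%).

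Several transmitter-gated channels and receptors had strong peaks that were seen in few lists. GRIN2D, a subunit of the NMDA receptor for glutamate, had folds of 32.0 and 37.2 in vector lists 1 and 3, at the same ends, 48398367 to 48398520 on chromosome 19. In NAT10 list 2 its fold was 6.39, at a different place, so the 1 overexpression value lies below both control values. HTR7, a serotonin receptor, had folds of 10.5 and 15.5 in NAT10 lists 1 and 2, against 33.5 in vector list 2, each at another place on the gene. At the place of the 15.5 in NAT10 list 2, vector list 2 had a fold of 13.1. P2RX5, an ATP-gated channel, had 7.3 in NAT10 list 2, against 42.2 and 7.74 in vector lists 2 and 3, and its fold above 40 came from a place where no other list had a peak.

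The nicotinic subunit genes are those of acetylcholine-gated channels, and 8 of 16 had a peak, 3 in more NAT10 and 2 in more vector lists (37.5% and 25%, beside backgrounds of 25.6% and 46.3%). CHRNG, the gamma subunit of fetal muscle, recurred most, in 4 lists, with highest folds of 11.1 and 10.03 in NAT10 lists 1 and 2, against 8.06 and 8.04 in vector lists 1 and 3, where the 11.1 comes from another place than the rest. Its peak at 232542882 to 232543082 on chromosome 2 was shared by 3 lists and had the same ends in vector lists 1 and 3.

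**Figure D5:**
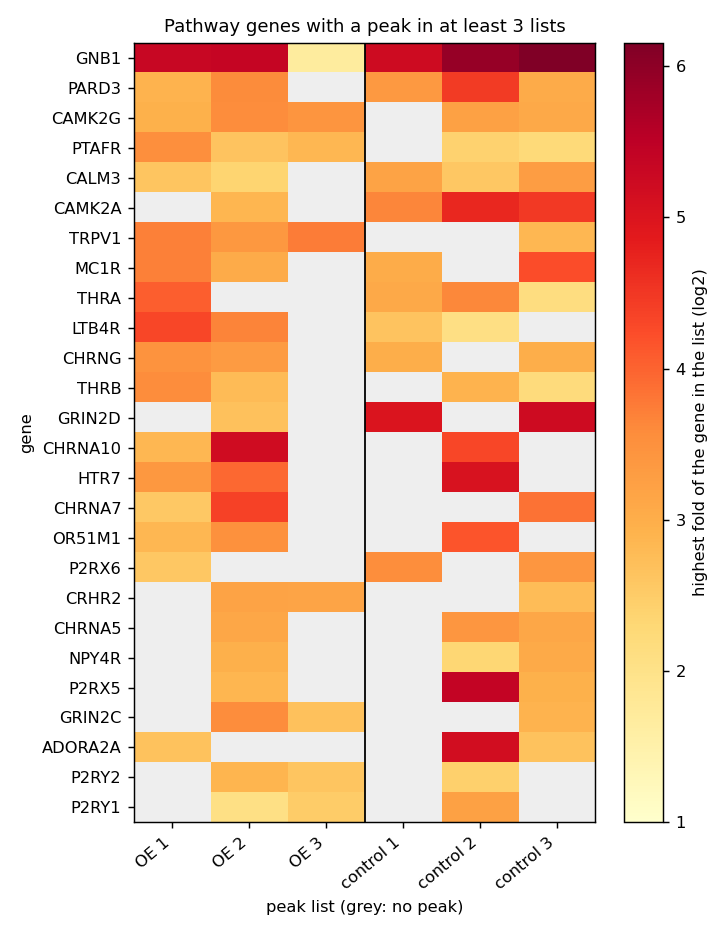
Highest fold of the gene in each list on a log2 scale, for the 26 pathway genes present in 3 or more lists, with NAT10 lists (OE) left of the line and vector lists (control) right of it, and grey where no peak was called. GNB1 alone fills all 6 columns, with its lowest fold, 3.18, in NAT10 list 3.

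THRA, the thyroid hormone receptor alpha, is a nuclear receptor found in most tissues. It had highest folds of 16.7 in NAT10 list 1, against 8.44, 12.5 and 4.39 in vector lists 1, 2 and 3, and no peak in NAT10 lists 2 and 3. Its peak at 40074192 to 40074541 on chromosome 17 was covered in 3 lists. The other genes of its group with a peak were THRB, NR3C1, the glucocorticoid receptor, and TSPO, in 4, 2 and 1 lists, and 0 of the 4 were in more NAT10 lists, against 2 in more vector lists (0% and 50%, beside backgrounds of 25.6% and 46.3%, over 4 genes).

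Of ligands, LEP alone carried the pathway in the files, with 1 peak of fold 7.3 in NAT10 list 2. The other 10 ligand genes with a peak included ADM2 and GAL, in 3 lists each, and NMB, in 4. Of all 11, 8 had peaks in more NAT10 and 2 in more vector lists (72.7% and 18.2%, beside backgrounds of 25.6% and 46.3%), and 8 of the 11 had a peak in 1 list only. Among proteases and their receptors PRSS1, a trypsin gene, had 1 peak, with a fold of 6.39 in NAT10 list 2. F2RL1, the protease-activated receptor of keratinocytes, had 1 peak with a fold of 4.22 in NAT10 list 3.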

How the data were processed

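Peak lists of 6 replicates were used, from 12 libraries of HaCaT cells (an IP and an input library each), grouped by sample title. Reads went through HISAT2 2.0.4, FastQC and cutadapt 1.9.3 (order not given) with the build GRCh38, per the submitters' processing notes. Peak names carry the caller MACS, whose version no source used here gives. Per the file headers, the deposited lists hold for each peak a score (headed as a log10 of the p-value scaled so that 1e-05 is 50, the lowest value), a fold or linear ratio of IP over background (lowest 2), a false discovery rate read as percent (29.28 or higher for each peak) and a length in bases. The fold, score and false discovery rate are the authors' own. In 2 lists, 3 and 2 lines were empty and were skipped. Starts count from 0 in the files and are printed from 1.

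Members are genes whose pathway field names either pathway. The members, role lists and alternatives were chosen with earlier results of these data known. Genes were named by a fixed rule: in all 6 lists, in all lists of one group and none of the other, the 8 leading olfactory receptors, the 3 with most peaks, longest peak or highest score, and 1 per role list, which gave 23 genes, of which 1 is not reported here. Peaks overlapped when sharing at least 1 base. Groups were compared over lists by a two-sided exact permutation test (20 splits), with a threshold of 0.05, and the overlap and permutation code was tested on simulated data. All 109 genes matched RefSeq (GRCh38.p14) by identifier, 1 under another symbol. Role lists were matched by symbol or identifier. No exon annotation was used. Python 3.11.15, pandas 2.3.3 and numpy 2.4.6 were used.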

Additional observations from a re-analysis of the deposited data

How the results depend on the processing

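Of 124 recomputed values, 111 kept their direction and their side of the threshold or moved by less than the spread between lists. The 111 include the values of the replicate block and of rows as deposited, which equal the main values by construction. The tally thus overstates how stable the results are. No difference between groups passed the threshold in any setting, which 3 lists against 3 cannot do. The share of pathway genes among genes with a peak was higher in overexpression in every setting run (0.112 to 0.309 percentage points, p = 0.1 to 0.667 by exact permutation), as was their share of peaks (0.0910 to 0.247, p = 0.1 to 0.667). The log2 difference in the number of genes ran from −0.27 to 0.52, and in the number of peaks from −0.39 to 0.76, when 1 list was left out. Without both the longest and the shortest list it was 0.71 for genes and 1.14 for peaks (exact permutation p = 0.667 and 0.333). It turned without vector list 1 (−0.27 for genes, −0.39 for peaks) and without NAT10 list 2 (−0.0754 and −0.12), and for peaks also with only unrepeated pairs of score and fold (−0.0782). The excess of length fell to 0.13 (log2) when the 3105 top-scoring peaks of each list were taken. Genes in all remaining lists of one group and none of the other numbered 0 to 2 for overexpression and 0 to 3 for control when 1 list was left out, and 2 for control with an equal number of peaks. The cause of these changes was not tested, except that fewer lists make such genes easier to find. Deviations of the highest fold of each gene from its group mean correlated by −0.00300, −0.0492 and −0.0635 between equally numbered lists. Between unequally numbered lists they correlated by −0.0102 to 0.0685. The length of the lists enters these values, so they show no pairing by number but cannot decide whether there is one. With the replicate block the differences are the same by construction, 0.20 (genes, log2), 0.22 (peaks, log2), 0.191 and 0.224 (shares of peaks and of genes), and the exact p was 0.75 for both numbers and 0.25 for both shares, the smallest that 3 pairs allow. Taking rows as deposited repeats the main computation, so its values are the same by construction and it checks nothing. Leaving out PARD3, peaks over other genes and peaks with repeated values were alternatives chosen after seeing the data. Read depth is unknown and limits every comparison of list lengths.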

Other observations

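Receptors for sphingosine 1-phosphate and prostaglandins were seen in few lists, and all values in this section were chosen after they were seen. S1PR5 had overlapping peaks in NAT10 lists 1 and 2, with folds of 10.4 and 12.5, and none in a vector list. S1PR2 had a fold of 11.9 in NAT10 list 2 and a highest fold of 18.95 in vector list 2, at different places. Where the NAT10 list 2 peak lay, vector list 2 had an overlapping peak with a fold of 8.65. PTGER2, a prostaglandin E2 receptor, had peaks in vector lists 2 and 3 only, with folds of 6.48 and 4.85 at different places. RXFP3, a relaxin family receptor, and CALCRL, the receptor partner of adrenomedullin signalling, each had a peak in vector lists 1 and 3 only, at 33936755 to 33936999 on chromosome 5 with the same ends in both lists and, for CALCRL, from 187344482 on chromosome 2.

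CHRNA10, a nicotinic subunit gene, had overlapping peaks of 641 and 743 bases in NAT10 lists 1 and 2, with folds of 7.15 and 36.5, and a peak of 17 bases with a fold of 19.8 elsewhere on the gene in vector list 2. SSTR2 had 3 peaks, all in NAT10 list 2, with folds of 7.3, 6.39 and 7.3. GNAL, the G protein alpha subunit of olfactory neurons, had 2 peaks, both in vector list 2, with folds of 40.6 and 17.9.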
